A study of Homo sapiens with 5 samples.

Results

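Histones are the proteins that package DNA into nucleosomes, and their genes were followed here through a comparison of translation in HL-60 cells given decitabine or DMSO. HL-60 is an established human leukaemia cell line of promyelocytic character, and all samples were of wild-type genotype. Decitabine, a cytidine-like drug that inhibits DNA methylation once built into DNA, was given at 100 nM on 3 occasions, at the start and after 24 and 48 hours, and cells were lysed at 72 hours in a buffer with cycloheximide; control wells received DMSO, and no dose of it is stated in the labels. The labels list 2 total RNA libraries for each treatment and 1 library of ribosome-protected fragments in which the samples were pooled after linker ligation. The members are the rows of the authors' deposited table whose gene name begins with HIST and a digit, H2AF, H3F or H1F, which gave 61 of 6309 genes: 5 H1, 19 H2A, 14 H2B, 10 H3 and 13 H4 genes. Of these, 56 are clustered HIST genes and 5 are variant genes outside the clusters.

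Clustered histone genes are replication-dependent as a rule. Their mRNAs mostly accumulate in S phase and end in a stem-loop instead of a poly(A) tail. The stem-loop binding protein that sits on this end takes part in processing, translation and decay. Variant histones are made throughout the cell cycle, mostly from polyadenylated mRNAs, and replace the standard proteins at particular sites. Core histones H2A, H2B, H3 and H4 form the nucleosome, and H1 binds the linker DNA between nucleosomes.

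Each gene had a single value in the authors' deposited table, a drug coefficient of translation efficiency, which is ribosome-protected RNA relative to total RNA. Positive coefficients mean higher efficiency with decitabine. The coefficient was read as a natural log, although the log base is not stated; if it is a log2 value, every fold below lies closer to 1. Errors are standard errors implied by the deposited p-values, and values per library and the depth of the libraries were not analysed here. The median coefficient of all 6309 genes was 0.09, with a lower quartile of -0.08 and an upper quartile of 0.26, and the table gave values for promyelocytic markers including MPO, while the 5 erythroid and 5 lymphoid markers looked for were not analysed here.

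Some histone genes with the same protein product sit in near-identical copies, and the sequences upstream of such copies show how alike they are. The 2 pairs below are from the HIST2 cluster on chromosome 1, and the second includes HIST2H3A, the H3 gene with the lowest coefficient; each line is the 100 bases before the RefSeq start (build GRCh38.p14), read 5′ to 3′ on the gene's own strand, with TATAAA and CCAAT boxes on either strand in capitals. The positions are chr1:149842751-149842850 on the minus strand, chr1:149850961-149851060 on the plus strand, chr1:149852508-149852607 on the plus strand and chr1:149841209-149841308 on the minus strand, in the order shown.
HIST2H2AA3: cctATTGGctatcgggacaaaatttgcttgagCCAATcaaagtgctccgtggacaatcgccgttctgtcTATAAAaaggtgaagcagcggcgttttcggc
HIST2H2AA4: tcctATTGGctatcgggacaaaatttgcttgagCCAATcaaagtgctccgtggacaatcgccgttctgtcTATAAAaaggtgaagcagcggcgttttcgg
HIST2H3A: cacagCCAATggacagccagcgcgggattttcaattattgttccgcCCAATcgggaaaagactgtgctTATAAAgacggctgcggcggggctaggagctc
HIST2H3C: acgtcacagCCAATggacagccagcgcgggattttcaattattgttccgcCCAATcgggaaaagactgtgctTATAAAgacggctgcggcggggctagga
Over the longer upstream window, 249 of 249 aligned bases were equal between HIST2H2AA3 and HIST2H2AA4, 246 of 246 between HIST2H3A and HIST2H3C, and 250 of 250 between HIST2H4A and HIST2H4B. HIST2H3D encodes the same protein as HIST2H3A and HIST2H3C but was unlike them upstream. It had 92 of 249 aligned bases equal with HIST2H3A and 92 of 247 with HIST2H3C. Upstream sequences of other members were not compared in this way. The sources used here do not say how reads that fit more than 1 copy were counted, so the value of each copy is uncertain. Transcribed sequences were not compared here. The same limit therefore may apply to other members of a class, such as the HIST1 genes that encode the same protein, and to HIST1H2AH. In the authors' deposited table the coefficients were -0.25 for HIST2H2AA3 and -0.23 for HIST2H2AA4, -0.36 for HIST2H3A and -0.23 for HIST2H3C, and -0.04 for HIST2H4A and 0.01 for HIST2H4B.

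Translation efficiency rose past the threshold for a single histone gene. HIST1H2AH, a clustered gene for histone H2A (now H2AC12, on chromosome 6 from 27147106 to 27147562 as a RefSeq gene span), was listed in the authors' deposited table with a coefficient of 0.33 ± 0.09 (implied SE) and a Benjamini-Hochberg adjusted p of 0.0443. That is 1.39 times the DMSO level on a natural log scale, with a 95% interval from 1.16 to 1.66, and 1.26 times if the coefficient is a log2 value. This was 1 of 61 histone genes, or 1.64%, against 0.808% of all genes called in either direction. After subtraction of the median of all genes HIST1H2AH stood at 0.23 with an adjusted p of 0.392, and no histone gene was then called. In a lysate of many cells, a different share of cells in S phase and a different efficiency per cell cannot be told apart.

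Without adjustment, 14 histone genes had a p below 0.05 in the authors' z test, 13 of them higher and 1 lower with drug. The higher genes were 21.3% of the members, against 8.35% of all genes, and the lower gene was 1.64%, against 1.95%. Histone genes were measured more precisely than most: their implied SE had a median of 0.15, against 0.25 for all genes, and 53 of 61 lay below the latter. Among the 925 genes with an implied SE no larger than the histone median, 20.1% were higher at p below 0.05; of the 31 histone genes in that range 10 were, or 32.3%. When zero was moved to the median of all genes, 1 histone gene was higher and 5 were lower at p below 0.05, against 3.69% and 4.25% of all genes in these directions. The higher gene was HIST1H2AH, and the lower genes were HIST2H3A and its near-identical copy HIST2H3C, HIST2H2BE, HIST2H2BF and HIST1H2AJ, none of them with an adjusted p below 0.05. The median histone coefficient was 0.09 in the authors' deposited table, and 30 of 61 members lay above the median of all genes.

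**Figure D1:**
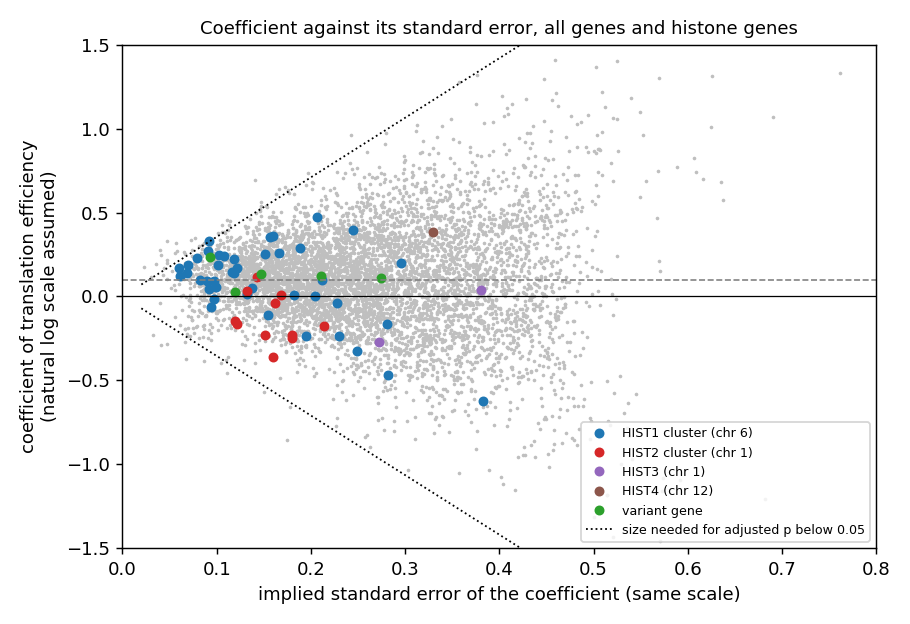
Drug coefficient of each gene (vertical axis, natural log scale assumed) against its implied standard error (horizontal axis), with all genes in grey, histone genes coloured by cluster, the dashed line at the median of all genes and the dotted lines at the size needed for an adjusted p below 0.05. The histone genes lie to the left, with standard errors from 0.06 to 0.38, and only HIST1H2AH reaches the dotted line; 10 genes fall outside the axes.

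At the median histone standard error a coefficient of 0.54 in size was needed to pass, and at the smallest one 0.21. The coefficients of the members ran from -0.62 for HIST1H2BI to 0.47 for HIST1H4K in the authors' deposited table. For 47 of the 61 the 95% interval held 0, and for 55 it held the median of all genes.

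**Figure D2:**
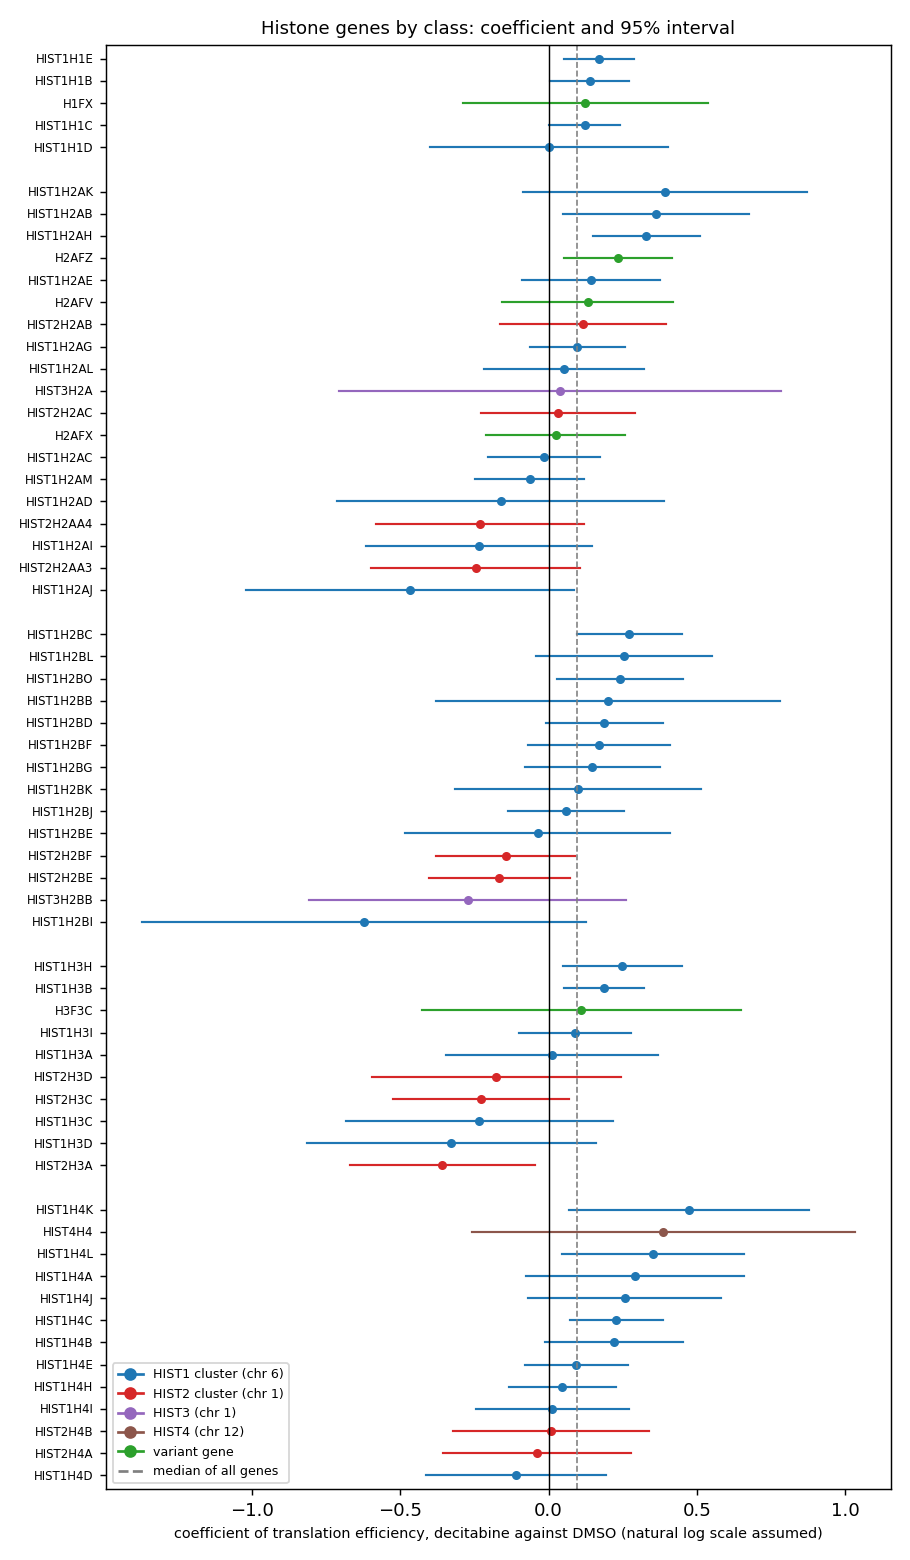
Drug coefficient (point) and 95% interval from the implied standard error (line) for all 61 histone genes, ordered by coefficient within the classes H1, H2A, H2B, H3 and H4 and coloured by cluster; the solid line marks 0 and the dashed line the median of all genes, 0.09. Most intervals cross both lines, and the HIST2 genes sit mainly in the lower part of their class.

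The linker histone genes had the lowest class median of the implied SE, 0.07, although HIST1H1D and H1FX had 0.20 and 0.21, and all 5 coefficients were above 0, 4 of them above the median of all genes as well. In the authors' deposited table HIST1H1E, which encodes H1.4, had a coefficient of 0.17 ± 0.06 (implied SE; adjusted p = 0.173). HIST1H1B, which encodes H1.5, followed in the authors' deposited table with 0.14 ± 0.07 (adjusted p = 0.456), and HIST1H1C, which encodes H1.2, with 0.12 ± 0.06 (adjusted p = 0.466). These 3 had unadjusted p-values of 0.0043, 0.0417 and 0.0453, and none passed after adjustment. HIST1H1D, for H1.3, was close to 0 in the authors' deposited table, with a 95% interval from -0.40 to 0.40, and the variant H1FX (H1.10) had 0.12 with an interval from -0.29 to 0.54. The H1 median was 0.12, which is 0.03 above the median of all genes.

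Genes for H4, which all encode the same protein, had the highest class median, 0.22, and 11 of 13 were above 0. Weighted by precision, the H4 mean was 0.14, level with 0.14 for H1. In the authors' deposited table HIST1H4K had 0.47 ± 0.21 (implied SE; adjusted p = 0.376), HIST1H4L had 0.35 ± 0.16 (adjusted p = 0.388) and HIST1H4C had 0.23 ± 0.08 (adjusted p = 0.169). The first of these is 1.61 times the DMSO level on a natural log scale, with an interval from 1.07 to 2.41. None of the H4 genes passed. HIST4H4, the lone H4 gene on chromosome 12, had 0.39 in the authors' deposited table with an interval from -0.26 to 1.03. Further positive values there were 0.29 for HIST1H4A, 0.26 for HIST1H4J, 0.22 for HIST1H4B, 0.09 for HIST1H4E, 0.05 for HIST1H4H and 0.01 for HIST1H4I. The lowest was HIST1H4D with -0.11 (interval -0.41 to 0.19) in the same table. Relative to the median of all genes 7 of the 13 were above and 6 below.

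Among H2B genes, those above 0 were all in the HIST1 cluster, where they numbered 9 of 11, led in the authors' deposited table by HIST1H2BC with 0.27 ± 0.09 (implied SE; adjusted p = 0.147). Next in the authors' deposited table came HIST1H2BL with 0.25, HIST1H2BO with 0.24 ± 0.11 (adjusted p = 0.395) and, after HIST1H2BB with 0.20, HIST1H2BD with 0.19 ± 0.10 (adjusted p = 0.516). HIST1H2BF, HIST1H2BG, HIST1H2BK and HIST1H2BJ followed, from 0.17 down to 0.06 in that order. Both HIST2 genes were below 0 in the authors' deposited table, HIST2H2BF with -0.14 and HIST2H2BE with -0.17, and so was HIST3H2BB with -0.27. HIST1H2BC, HIST1H2BE, HIST1H2BF, HIST1H2BG and HIST1H2BI encode the same H2B protein, and their coefficients in the authors' deposited table were 0.27, -0.04, 0.17, 0.15 and -0.62. The last, the lowest of all members, had the widest interval, from -1.37 to 0.13, and an adjusted p of 0.595.

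Of the H2A genes 12 of 19 were above 0, with a median of 0.04 and a precision-weighted mean of 0.08. Besides HIST1H2AH, the highest in the authors' deposited table were HIST1H2AK with 0.39 ± 0.24 (implied SE; adjusted p = 0.597) and HIST1H2AB with 0.36 ± 0.16 (adjusted p = 0.39). HIST1H2AJ was lowest in the authors' deposited table, with -0.47 ± 0.28 (adjusted p = 0.584). HIST1H2AG, HIST1H2AI, HIST1H2AK, HIST1H2AL and HIST1H2AM encode the same H2A protein, and their coefficients in the authors' deposited table were 0.10, -0.23, 0.39, 0.05 and -0.06. Values for HIST1H2AE, HIST1H2AC and HIST1H2AD were 0.14, -0.02 and -0.16 there. The HIST2 genes HIST2H2AB and HIST2H2AC had 0.12 and 0.03 in the authors' deposited table, unlike the copies HIST2H2AA3 and HIST2H2AA4 given above, and HIST3H2A had 0.04.

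H3 was the class with the lowest median, -0.08, with 5 of 10 genes above 0. The HIST1 genes encode H3.1 and the HIST2 genes H3.2, which differ in a single residue. In the authors' deposited table HIST1H3H had 0.25 ± 0.10 (implied SE; adjusted p = 0.305) and HIST1H3B had 0.19 ± 0.07 (adjusted p = 0.211). HIST1H3I and HIST1H3A had 0.09 and 0.01 there, and HIST1H3C and HIST1H3D had -0.23 and -0.33. All 3 H3.2 genes were below 0 in the authors' deposited table: HIST2H3A with -0.36 ± 0.16 (adjusted p = 0.392), HIST2H3C with -0.23 and HIST2H3D with -0.18. HIST2H3A was the only histone gene with an interval wholly below 0, from -0.67 to -0.05, which is 0.699 times the DMSO level on a natural log scale. Weighted by precision, the mean of the class was 0.06 instead of -0.08.

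The variant genes were few and all 5 were above 0, with a median of 0.12, against 0.07 for the 56 clustered genes. H2AFZ, which encodes H2A.Z.1, a variant found at promoters, was given 0.23 ± 0.09 (implied SE; adjusted p = 0.276) by the authors' deposited table, and its paralogue H2AFV, for H2A.Z.2, had 0.13 (interval -0.16 to 0.42). H2AFX, for H2A.X, whose phosphorylated form marks DNA breaks, had 0.02 with an interval from -0.21 to 0.26 there; its mRNA is known with either kind of end. H3F3C, for the H3.3-like protein H3.5, had 0.11 with an interval from -0.43 to 0.65. The H3.3 genes H3F3A and H3F3B were not analysed here. No variant passed, and the difference between variant and clustered genes was not tested. The split follows gene names, and the ends of the mRNAs were not examined for either group.

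The HIST1 and HIST2 clusters were also set side by side, a split looked at after the values were seen and therefore described without a test. In the HIST1 cluster, on chromosome 6, 32 of 42 genes were above 0 and the median was 0.13; in the HIST2 cluster, on chromosome 1 between 149782689 and 149887965, 3 of 11 were above 0 and the median was -0.17, beside 65% of all genes above 0 in the authors' deposited table. Relative to the median of all genes, 24 of the 42 HIST1 genes were above and 10 of the 11 HIST2 genes were below, HIST2H2AB being the exception. The implied SE had similar medians, 0.13 in HIST1 and 0.16 in HIST2. With the 3 near-identical pairs of HIST2 counted once each, the HIST2 median was -0.16.

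**Figure D3:**
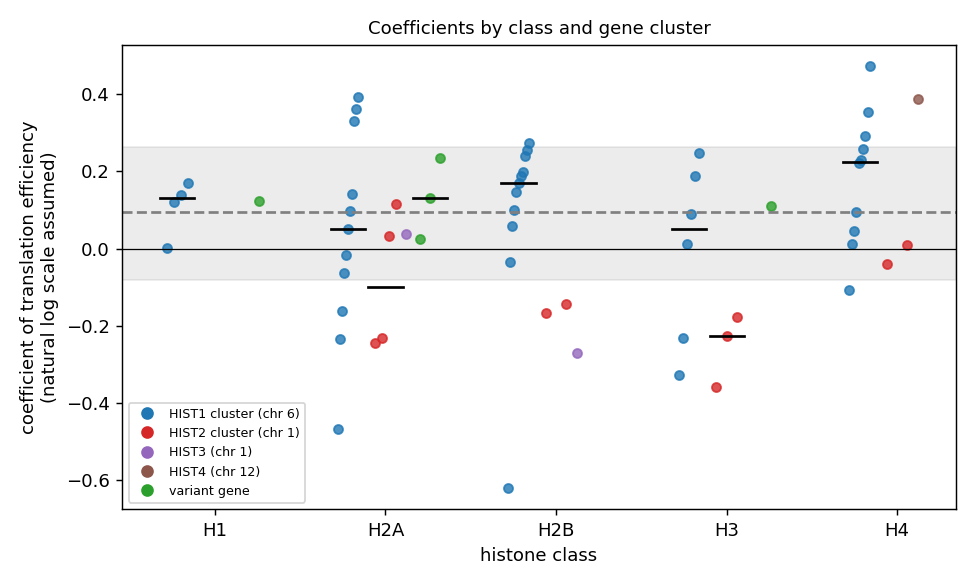
Drug coefficient of each histone gene (vertical axis, natural log scale assumed) by class (horizontal axis) and cluster (colour), with short bars at the medians of groups of at least 3 genes, the dashed line at the median of all genes and the grey band over the middle of all genes, from -0.08 to 0.26. In each of the 4 core classes the HIST2 median lies below the HIST1 median: -0.10 and 0.05 in H2A, -0.16 and 0.17 in H2B, -0.23 and 0.05 in H3, and -0.02 and 0.23 in H4, with only 2 HIST2 genes each in H2B and H4. Near-identical copies are counted separately here. In H2A the HIST2 genes below 0 are the copies HIST2H2AA3 and HIST2H2AA4, beside 0.12 for HIST2H2AB and 0.03 for HIST2H2AC. HIST2H3A and HIST2H3C in H3 and both HIST2 genes of H4 are also such copies.

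Along the chromosome the HIST1 genes lie in 3 stretches, with 24 genes from 26020451 to 26285534, 5 from 27132316 to 27147562 and 13 from 27807479 to 27893891 on chromosome 6. The medians were 0.13, 0.10 and 0.24 in that order, and the precision-weighted means were all 0.14. Genes above 0 numbered 17 of 24, 5 of 5 and 10 of 13.

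Many H2A and H2B genes stand head to head and share the DNA between their starts as promoter. Among the members with a listed strand, 8 such pairs had starts 222 to 247 bases apart, and in 6 of them the coefficients had opposite signs. That count takes 0 as the reference. Measured from the median of all genes, HIST3H2A and HIST3H2BB were both below it, as were HIST2H2BE and HIST2H2AC. HIST1H2BJ and HIST1H2AG then lay on opposite sides. The H2B gene was higher in 5 of the 8. HIST1H2AH, the only histone call, has no listed strand and could not enter a pair. Its span begins at 27147106, and that of HIST1H2BK, on the minus strand, ends at 27146858. The coefficients of these were 0.33 for HIST1H2AH and 0.10 for HIST1H2BK. For 3 of the 8 pairs the 95% interval of the difference, H2B minus H2A, left out 0. No adjustment was made over the 8 pairs, the genes of a pair were taken as independent, and the comparison was not planned in advance. The differences were 0.49 (0.0041 to 0.97) for HIST1H2BL and HIST1H2AI, 0.30 (0.02 to 0.59) for HIST1H2BO and HIST1H2AM, and 0.29 (0.03 to 0.55) for HIST1H2BC and HIST1H2AC. The closest pair was HIST1H2BG and HIST1H2AE, with 0.15 and 0.14 in the authors' deposited table. HIST3H2BB and HIST3H2A differed by -0.31 with an interval from -1.23 to 0.61.

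**Figure D4:**
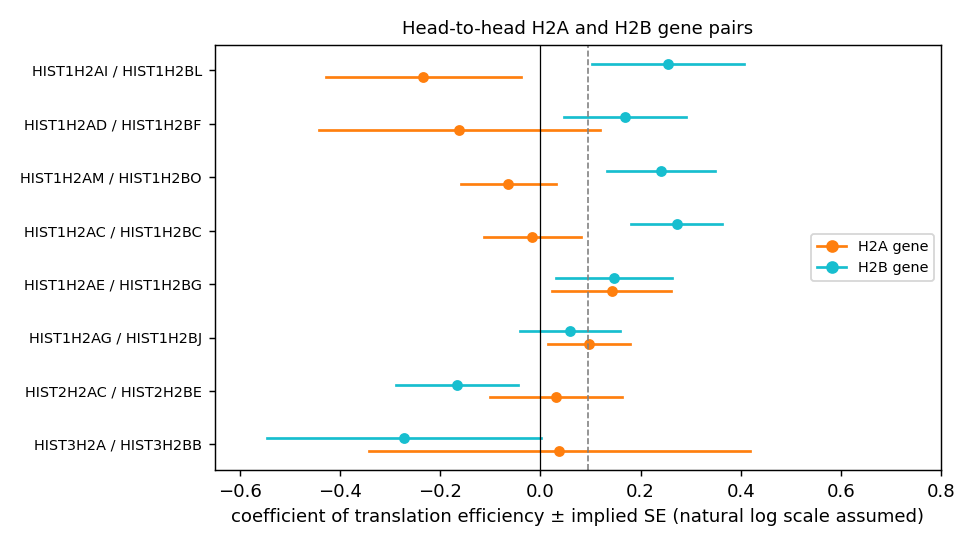
Drug coefficient with its implied standard error (horizontal axis, natural log scale assumed) for the 8 head-to-head pairs of an H2A gene (orange) and an H2B gene (blue), sorted by the difference; the solid line marks 0 and the dashed line the median of all genes. The H2B gene lies to the right in 5 pairs, and the signs, taken from 0 and not from the median of all genes, differ in 6.

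The DNA between the starts is shown for the 3 pairs whose difference left out 0, so that the letters common to both genes of a pair can be read. Each is read on the plus strand of chromosome 6 (RefSeq, GRCh38.p14), from the H2A or H2B start on the left, whose gene runs leftwards, to the start on the right, with capitals for the TATA box TATAAA, the box CCAAT and the octamer ATTTGCAT on either strand; matches of the 3 motifs do not overlap in these runs. They are chr6:26123927-26124171, chr6:27893186-27893424 and chr6:27807930-27808172.
HIST1H2BC-HIST1H2AC: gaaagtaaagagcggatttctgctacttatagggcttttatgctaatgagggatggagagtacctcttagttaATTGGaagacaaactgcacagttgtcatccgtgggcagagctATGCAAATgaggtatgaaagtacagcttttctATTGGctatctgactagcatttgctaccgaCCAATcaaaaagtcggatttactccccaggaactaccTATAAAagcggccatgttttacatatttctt
HIST1H2AM-HIST1H2BO: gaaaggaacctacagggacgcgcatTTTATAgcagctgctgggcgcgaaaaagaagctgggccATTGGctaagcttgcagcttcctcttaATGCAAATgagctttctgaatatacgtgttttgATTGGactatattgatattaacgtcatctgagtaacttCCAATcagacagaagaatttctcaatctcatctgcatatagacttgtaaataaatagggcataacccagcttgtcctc
HIST1H2BL-HIST1H2AI: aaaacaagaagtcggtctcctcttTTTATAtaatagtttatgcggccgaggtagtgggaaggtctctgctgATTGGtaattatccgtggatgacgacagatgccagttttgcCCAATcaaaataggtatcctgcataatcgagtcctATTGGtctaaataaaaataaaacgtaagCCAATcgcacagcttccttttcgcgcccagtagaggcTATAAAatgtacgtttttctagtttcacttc
All 3 hold CCAAT boxes, and the first 2 hold the octamer ATTTGCAT in reverse, a motif known from H2B promoters.

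Upstream windows of 250 bases were found in RefSeq for 56 of the 61 members; HIST1H2AH, HIST1H3I, HIST1H4A, HIST1H4C and H3F3C had none. TATAAA on either strand was in 38 of 56 windows (67.9%), against 11.0% of 27249 other genes, and CCAAT in 46 (82.1%), against 32.9%. The windows of head-to-head genes and of near-identical copies hold largely the same DNA, so some matches are counted more than once. With either strand counted, a match can also belong to the partner gene. The octamer was in 11 of 14 H2B and 10 of 18 H2A windows, many of them shared, in 1 of 8 H3 windows and in none of 5 H1 and 11 H4 windows, against 1.59% of other genes. CCAAT was in all H2A, H2B and H3 windows but in 2 of 11 H4 windows. By cluster, TATAAA was in 26 of 38 HIST1 and 8 of 11 HIST2 windows. An ATG lay within the first 50 transcribed bases in 36 of 56 members (64.3%), 11 of 11 H4 genes among them and 0 of 4 variants, against 40.6% of other genes. This count did not separate a gene's own start codon from an ATG ahead of it, so it does not count upstream ATGs. These are matches of letters only.

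Some members overlap others as annotated. HIST1H2AD lies inside the span of HIST1H3D on the same strand, HIST1H4I inside that of HIST1H2BK on the other strand, and HIST2H3A and HIST2H2AA4 inside that of HIST2H4B on the other strand. Use of strand in the counting is unknown from these sources, which leaves the values of these genes uncertain too. The spans of HIST1H2AD and HIST1H3D also have the same 5′ end, at 26199293, so their upstream windows may hold the same DNA.

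Genes that handle histone mRNA and protein were followed in lists chosen by role. Of 17 measured genes for the end formation and decay of histone mRNA, none passed in the authors' z test with Benjamini-Hochberg adjustment, and 2 were higher at an unadjusted p below 0.05, or 11.8% beside 8.35% of all genes; the list's median was 0.09, as for all genes. TUT4, a uridylyl transferase that marks mRNAs for decay, was given 0.68 ± 0.20 (implied SE; adjusted p = 0.0654) by the authors' deposited table. SNRPE, a core protein of small nuclear ribonucleoproteins, had 0.33 ± 0.14 (adjusted p = 0.315), and NPAT, the coactivator of clustered histone genes, had -0.45 ± 0.23 (adjusted p = 0.499), both from the authors' deposited table. The stem-loop binding protein SLBP was not analysed here.

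Of 38 measured histone chaperones and deposition factors, 2 rose and none fell, or 5.26%, beside 0.808% of all genes called in either direction, and the median was 0.13. Their implied SE had a median of 0.17, against 0.25 for all genes. At an unadjusted p below 0.05 in the authors' z test, 5 were higher and 1 lower. These were 13.2% and 2.63%, beside 8.35% and 1.95% of all genes. By the authors' deposited table NASP, a chaperone of soluble histones, rose with 0.38 ± 0.11 (implied SE; adjusted p = 0.0481), and NCL, the nucleolar protein nucleolin, rose with 0.32 ± 0.06 (adjusted p = 1.79e-05). With the authors' coefficients centred on their median, NCL passed and NASP did not (adjusted p = 0.337). Of the others in the authors' deposited table, MCM2, a helicase subunit that also binds H3 and H4, had 0.25 (adjusted p = 0.193), TONSL had 0.33 (adjusted p = 0.402) and HJURP had 0.38 (adjusted p = 0.406). CENPA, the centromeric H3 variant that HJURP deposits, had 0.62 there with an interval from -0.06 to 1.30.

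Genes of S phase and proliferation had a median of 0.17 over 12 measured members, 11 of them above 0, beside 65% of all genes above 0. Their implied SE had a median of 0.10, against 0.25 for all genes, and MCM2 is also in the list of chaperones. By the authors' deposited table MCM4, part of the replicative helicase, was the only call, with 0.35 ± 0.08 (implied SE; adjusted p = 0.00262), beside 0.808% of all genes called, and MKI67, the proliferation antigen Ki-67, had 0.24 (adjusted p = 0.0913). With the authors' coefficients centred on their median MCM4 no longer passed (adjusted p = 0.129), and no gene of the list did. CCNE2, a cyclin of the entry into S phase, was the member below 0, with -0.16 in that table. The part of the cell cycle in the histone values was not tested.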

How the data were processed

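The submitters' processing notes name Bowtie2, SAMtools 1.11, UMI-tools 1.1.1 and build hg38; the sources used here give neither the fitted model nor its counting, scaling and use of replicates. The authors' deposited table gives, per the file headers, a coefficient (taken as a natural log), a two-sided p-value of its z test, an adjusted p-value and a q-value per gene. The adjusted p-value equals a Benjamini-Hochberg adjustment over all 6309 genes. From these an implied standard error (coefficient over z) and a 95% interval were computed in Python 3.11.15 with scipy 1.17.1. The labels do not state that samples came from separate cultures. Without the fitted model it is unknown which spread the p-values measure, and that spread may be technical only. Calls are at an adjusted p below 0.05. Named genes are calls, the 3 smallest p-values and the extremes of each class, and the leading members of each list; other members are named to account for all. Members and lists were chosen with earlier results of these data known. Values of groups are descriptions. The planned refit of counts was not run, since no counts were used here. Centring and adjustment were tested on simulated data with independent errors and planted effects larger than any histone coefficient. That simulation does not cover effects of the size seen here or errors shared between copies. All 61 members matched RefSeq (GRCh38.p14) by current or older symbol; a gene with several upstream windows is represented by the first listed.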

Additional observations from a re-analysis of the deposited data

How the results depend on the processing

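The single histone call held at an adjusted p below 0.1, with the deposited q-value and without the 25% of genes with the largest implied SE. The count of calls was 0 at an adjusted p below 0.01, 0 with the Benjamini-Yekutieli adjustment, 0 after centring on the median and 0 after centring on the precision-weighted mean of all genes. HIST1H2AH then stood at 0.23 and 0.24 with adjusted p-values of 0.392 and 0.366. The count of genes at an unadjusted p below 0.05 went from 14 to 6 after either centring, 1 higher and 5 lower on the median and 2 higher and 4 lower on the weighted mean. Those counted on the median were not all among the 14. HIST2H3C, for example, had an unadjusted p of 0.133 in the authors' z test. Measured from the median of all genes, the member median was -0.00092, that of the clustered genes -0.021, that of H2A -0.057 and that of H1 0.029, and HIST1H1D stood at -0.094 on the median and -0.089 on the weighted mean; this follows from the shift of every coefficient. The precision-weighted mean of H3 was 0.061, opposite in sign to its median. After centring, 1 call was left among histone chaperones, NCL, and 0 among genes of proliferation and S phase. Of the recomputed counts and group medians, 35 kept their direction and differed by less than 1.5 times (counts) or by less than the group's median implied SE (medians), 9 moved further and 4 changed sign. That SE is wide: with the all-gene median subtracted, the variant median went from 0.12 to 0.029, H2B from 0.12 to 0.028, HIST1 from 0.13 to 0.035 and H3 from -0.083 to -0.18. Of the values of 20 named genes under both centrings, 36 kept their direction and side of the threshold. No paired analysis was possible because the table used here holds no value per library, and for the same reason no replicate could be left out. The HIST1 and HIST2 split, the single counting of copies and the centring of the gene lists were chosen after seeing the data. The head-to-head pairs, the HIST1 stretches and the counts of letters in upstream windows were not planned in advance either. Precision is 1 limit: at the median implied SE of the members, coefficients smaller than 0.54 could not pass.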
